A study of Mus musculus with 6 samples.

Results

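The genes described here are 41 genes associated with autism in human genetics, measured beside Chd8, which is itself such a gene, in mouse embryonic stem cells in which Chd8 had been reduced. The list holds 25 genes of chromatin and transcription, 8 genes of synapses and neurons, and 8 genes of ubiquitin ligases, kinases, growth control and other functions. Members were found by their gene symbol in the annotation of the bead array, and 37 of the 41 had at least 1 probe, with 119 probes in all of the 45281 on the array. No probe of Ash1l, Mbd5, Wac or Nlgn3 was among those used here.

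Mouse embryonic fibroblasts inactivated with mitomycin C served as feeders for the stem cells, whose medium held 15% serum and leukemia inhibitory factor. The stem cells received an shRNA plasmid of the pHYPER type by electroporation. Selection with puromycin began 24 h after transfection and lasted 48 h, and RNA was then taken. Both groups went through these steps: 3 arrays came from control cells, and 3 arrays, called shChd8 here, from cells with a hairpin against Chd8. The labels name neither the contents of the control plasmid nor a second hairpin, a rescue, the stem cell line or separate cultures, so p-values cover no more than the variation among these 6 samples, and that may be technical.

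Chd8 is an ATP-dependent chromatin remodeller of the CHD family, and loss-of-function variants of its human counterpart are among the best-known single-gene causes of autism. Many other autism genes also act on chromatin: they write or remove methyl groups on histones, belong to remodelling or corepressor complexes, or are transcription factors of the developing cortex. A further group acts at the synapse, where scaffolds, receptors, channels and adhesion molecules join neurons, and these genes are mostly used in neurons rather than in stem cells.

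The mean intensity of the arrays before normalization lay between 389.9 and 497.5, and 16482 to 17440 probes were detected per array, where detected means a detection p-value under 0.01. The arrays lay on 1 slide, with the control and the shChd8 arrays at separate positions, which cannot be told apart from the groups. Correlations across tested and untested probes lay between 0.983 and 0.990 within the groups and between 0.975 and 0.986 across them. Of 24 tested markers of fibroblasts, the cell type of the feeders, 2 rose in shChd8 (Fbln2 and Tagln) and 23 had a log2 change above 0, with a median of 0.96 beside -0.02 over all genes tested. Their summed linear level was 12394 to 22014 on the control arrays and 26280 to 52563 on the shChd8 arrays, and Col5a2, Postn, Fap and Cnn1 were detected on no array. In these bulk samples, a change in the share of cells of a type and a change in RNA per cell cannot be told apart. All 12 stem cell markers were detected, 0 of them were called by limma (1 lower at an unadjusted p under 0.05), and their summed level was 76769 to 78438 in control and 73041 to 82073 in shChd8.

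Chd8 was measured by 1 detected probe, ILMN_2703082. Its normalized log2 intensity was 9.90, 9.97 and 10.02 in control, against 8.71, 8.64 and 8.36 in shChd8. Every shChd8 array lay below every control array, and 38.1% of the control level remained (log2 change -1.39, SE 0.15, limma adjusted p = 0.00907). Background correction moved this size too, with a log2 change of -1.21 without it. The call was lost once the feeder median was a covariate (log2 change -1.56, adjusted p = 0.274), in an unmoderated test (adjusted p = 0.061) and without shChd8 replicate 1 (adjusted p = 0.0527). With the feeder covariate 0 of all genes tested were called. The median of the feeder markers was higher on every shChd8 array than on every control array, so that model cannot separate it from the group.

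Of the 41 members, 30 had a probe that passed the filter, which asked for detection on at least 3 of the 6 arrays, and 2 of these were called at an adjusted p under 0.05: Cntnap2, which fell, and Bcl11a, which rose. Over all genes tested, 502 of 9711 were called, or 5.17%, with 2.12% called up and 3.05% called down. The members' share, 2 of 30, was close to that background. At an unadjusted p under 0.05 the members numbered 7 higher and 5 lower, beside 32.4% of all genes in either direction. On the brightest tested probe of each gene, 18 members had a log2 change above 0 and 12 below 0, with a median of 0.04 beside -0.02 over all genes tested. The range from the lower to the upper quartile was -0.12 to 0.34 for the members and -0.26 to 0.26 for all genes.

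**Figure D1:**
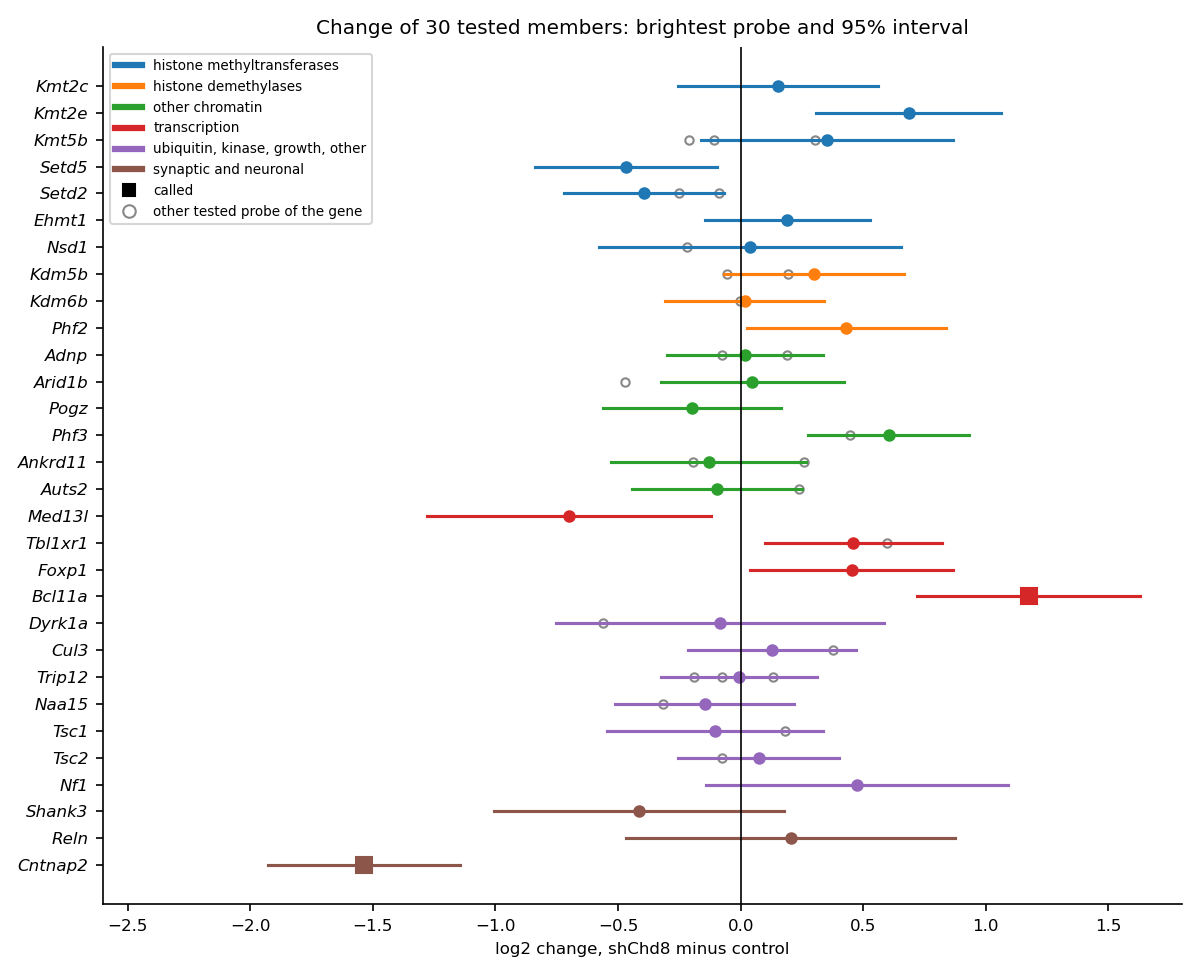
Log2 change, shChd8 minus control, of the brightest tested probe of each of 30 members (filled symbols, coloured by role) with its 95% interval from limma, and of the other tested probes of the same gene (open circles). Cntnap2 at -1.54 and Bcl11a at 1.17 (squares) were called, and the remaining 28 lay between -0.70 and 0.68.

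The promoter sequences of the called members are shown here because Cntnap2 has 2 annotated starts and its probes read differently. Each window runs from 250 bases before to 50 bases after an annotated start, was taken from RefSeq (GRCm38.p6, plus strand), and has each CG dinucleotide in capitals. The annotation ties all 5 Cntnap2 probes to the same transcript accession and so sets none of them apart by start. The files give no position for any probe, so which start a probe reports cannot be told from them.
Cntnap2, first start, chr6:45059811-45060110: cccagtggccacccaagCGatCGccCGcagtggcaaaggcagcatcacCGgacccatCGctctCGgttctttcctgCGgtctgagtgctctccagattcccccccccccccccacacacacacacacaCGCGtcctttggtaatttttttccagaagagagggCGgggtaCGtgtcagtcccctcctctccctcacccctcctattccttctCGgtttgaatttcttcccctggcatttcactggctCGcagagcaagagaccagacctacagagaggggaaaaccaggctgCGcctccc
Cntnap2, second start, chr6:47244146-47244445: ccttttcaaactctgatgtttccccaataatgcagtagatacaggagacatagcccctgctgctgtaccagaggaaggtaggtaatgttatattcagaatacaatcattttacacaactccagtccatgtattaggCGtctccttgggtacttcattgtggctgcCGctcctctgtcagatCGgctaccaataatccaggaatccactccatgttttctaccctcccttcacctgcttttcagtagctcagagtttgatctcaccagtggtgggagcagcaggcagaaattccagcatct
Bcl11a, chr11:24080445-24080744: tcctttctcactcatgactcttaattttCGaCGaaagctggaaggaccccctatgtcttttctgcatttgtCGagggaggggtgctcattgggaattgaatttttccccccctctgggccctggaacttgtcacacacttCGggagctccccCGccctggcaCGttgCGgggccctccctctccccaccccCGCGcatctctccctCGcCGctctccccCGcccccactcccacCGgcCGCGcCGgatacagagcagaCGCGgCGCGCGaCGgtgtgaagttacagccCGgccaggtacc

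The 2 Cntnap2 windows lie 2.18 Mb apart within the gene. CG, which reads the same on both strands, occurred 14 times in the first window and 3 times in the second, and 36.3% and 76.7% of all 32851 RefSeq windows of this length held at least as many. The Bcl11a window held 23, which 21.5% of all windows reached. For the 29 members with a window, the median count in the window with the most CG was 30, beside 8 over all 27025 genes with a window. It was 34 for 17 members of chromatin and transcription and 21 for 5 synaptic members, and among the windows of all members the count ranged from 1 for Setd5 to 63 for Phf2. The 27025 genes include many that were not tested in these cells, and the counts were not compared with those of tested genes only.

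Most probes of the synaptic members were not detected in these cells, although 5 of the 7 genes had a probe detected on at least 1 array and 2 of them, Cntnap2 and Shank3, on all 6. Of 28 probes for 7 synaptic genes, 23 were detected on no array, where their log2 values lay between 4.21 and 5.10. The lowest value of any detected probe was between 4.99 and 5.12 depending on the array. Shank2, a scaffold of excitatory synapses, and Scn2a1, a neuronal sodium channel, were not detected on any array by any probe. Grin2b, a subunit of the NMDA receptor, was detected on 1 control array by 1 of its 3 probes, and Ank2, the ankyrin of axons and heart muscle, on 1 array of each group by 1 of its 7 probes. These values are bounds at background and give no change.

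Of the 22 chromatin and transcription members with a probe, 21 were detected on at least 1 array, beside 5 of 7 synaptic members, and 18 had a probe detected on all 6 arrays, beside 2 of 7. Tbr1, a transcription factor of cortical neurons, was the 1 that was not detected, and Katnal2, a relative of the microtubule-severing katanins, was not detected either. Asxl3, a Polycomb-associated protein, was detected by 1 of its 4 probes, on 2 shChd8 arrays and 0 control arrays, and was not tested. Over the members, 37.0% of probes were detected on all 6 arrays and 45.4% on none, beside 30.5% and 53.0% of all probes on the array.

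**Figure D2:**
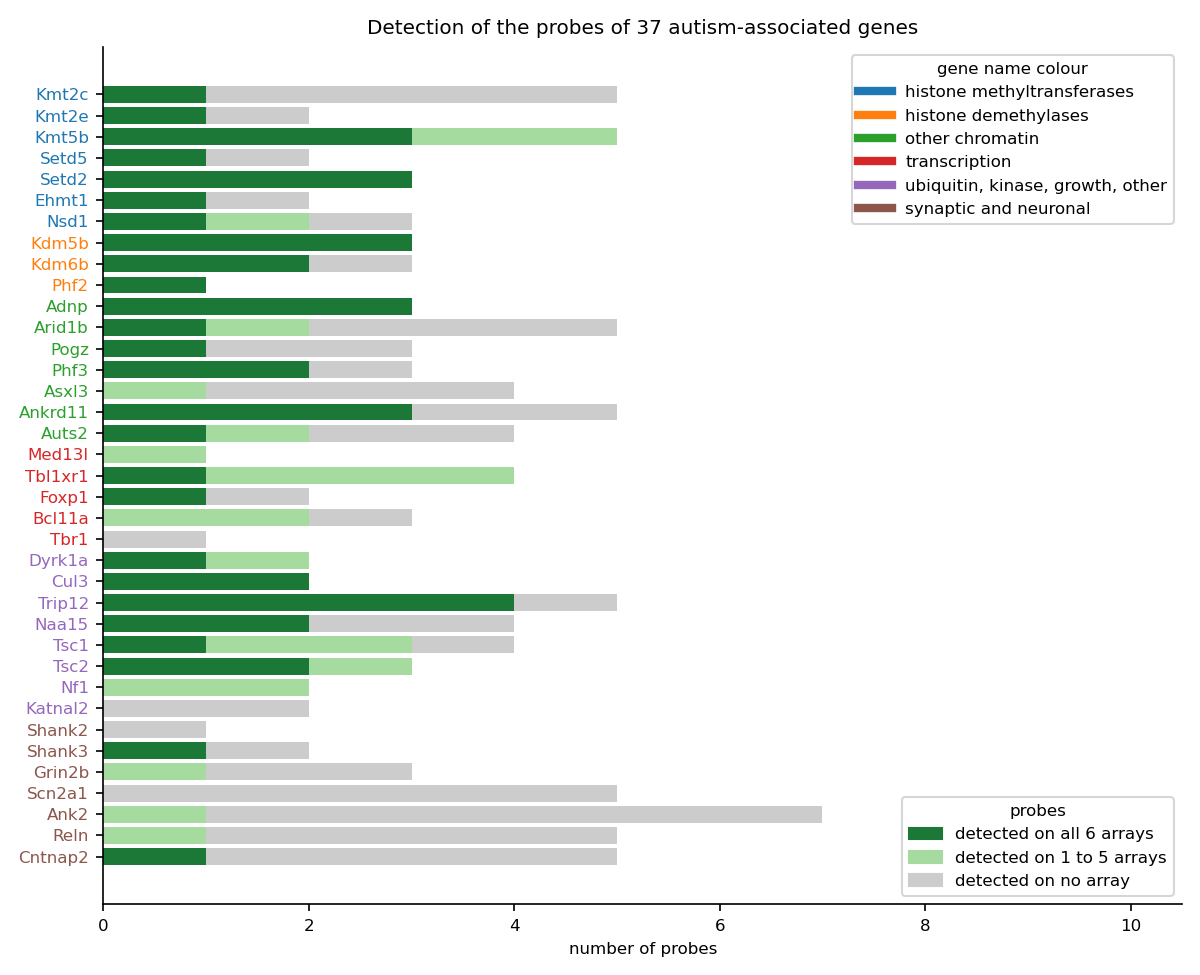
Number of probes per gene for the 37 members with a probe, split into probes detected on all 6 arrays (dark green), on 1 to 5 arrays (light green) and on none (grey), with gene names coloured by role. Of the 28 synaptic probes 23 are grey, against 25 of the 67 probes of chromatin and transcription members.

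Cntnap2, which encodes a neurexin-related adhesion molecule that clusters potassium channels along axons, fell. Its probe ILMN_2681321 had log2 values of 7.68, 7.16 and 7.35 in control, against 5.83, 5.95 and 5.81 in shChd8. The groups were separated by more than the spread within either, and the mean ± SD over 3 arrays went from 7.40 ± 0.26 to 5.86 ± 0.08. The log2 change was -1.54 (SE 0.17, 95% interval -1.93 to -1.14, limma adjusted p = 0.00907), which left 34.5% of the control level. An exact two-sided permutation test of these 6 values gave p = 0.1, the lowest value possible with 3 arrays a group.

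The other 4 Cntnap2 probes were detected on no array, with group means between 4.38 and 4.74, although the annotation ties all 5 to the same transcript accession. The fall therefore rests on 1 probe. Background correction moved its size: the log2 change was -0.81 both without it and in the deposited table, and -1.01 with normexp without control information. The call was lost without shChd8 replicate 1 (adjusted p = 0.0587), in an unmoderated test (adjusted p = 0.0748) and with the feeder median as a covariate, where the log2 change was -1.65 and the adjusted p = 0.274. The feeder markers moved upward in shChd8, and whether feeder RNA had a part in the fall of Cntnap2 was not tested. Among 18 neuronal and neural progenitor markers with a probe, 7 were tested and 0 called by limma (3 lower at an unadjusted p under 0.05), and their summed level was 2419 to 2598 in control and 2200 to 2336 in shChd8. Snap25, Nefl, Sox1, Pax6, Zic1 and Neurog1 were detected on no array.

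Bcl11a, a zinc-finger repressor that silences fetal globin genes in red cells and is needed for cortical neurons, rose. Its probe ILMN_2712044 had log2 values of 4.41, 4.65 and 4.60 in control, where no array detected it, against 6.04, 5.80 and 5.35 in shChd8, where all 3 did. Every shChd8 array lay above every control array. It was at least 1.54-fold higher in shChd8, taking the lowest detected value of each array as the bound for control (fitted log2 change 1.17, SE 0.20, limma adjusted p = 0.0288). Measured means were 4.55 ± 0.13 in control and 5.73 ± 0.35 in shChd8 (SD, n = 3 each). With no control array above background, the probe passed the filter through the shChd8 arrays alone, so a tested probe of this kind had to differ.

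A second Bcl11a probe, ILMN_1257463, was detected on 2 shChd8 arrays and on 0 control arrays and was not tested, with log2 values of 4.58, 4.66 and 4.61 in control and 4.68, 5.13 and 5.00 in shChd8. The third probe was detected on no array. The call on the tested probe was lost without control replicate 1 (adjusted p = 0.0937), control replicate 3 (0.09), shChd8 replicate 1 (0.12) or shChd8 replicate 2 (0.107), and in an unmoderated test (0.118). The feeder marker medians, relative to each marker's mean, were 0.94, 0.54 and -0.01 in shChd8, against -0.18, -0.36 and -0.95 in control. The 3 values of the tested Bcl11a probe stood in the same order within shChd8 but not within control, where it was not detected. A part of feeder RNA in this result was not tested, as a feeder covariate cannot be separated from the group. With the feeder median as a covariate the log2 change was 0.82 (SE 0.31, adjusted p = 0.507). It was 0.39 both without background correction and in the deposited normalized values, and 0.56 with normexp without control information.

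**Figure D3:**
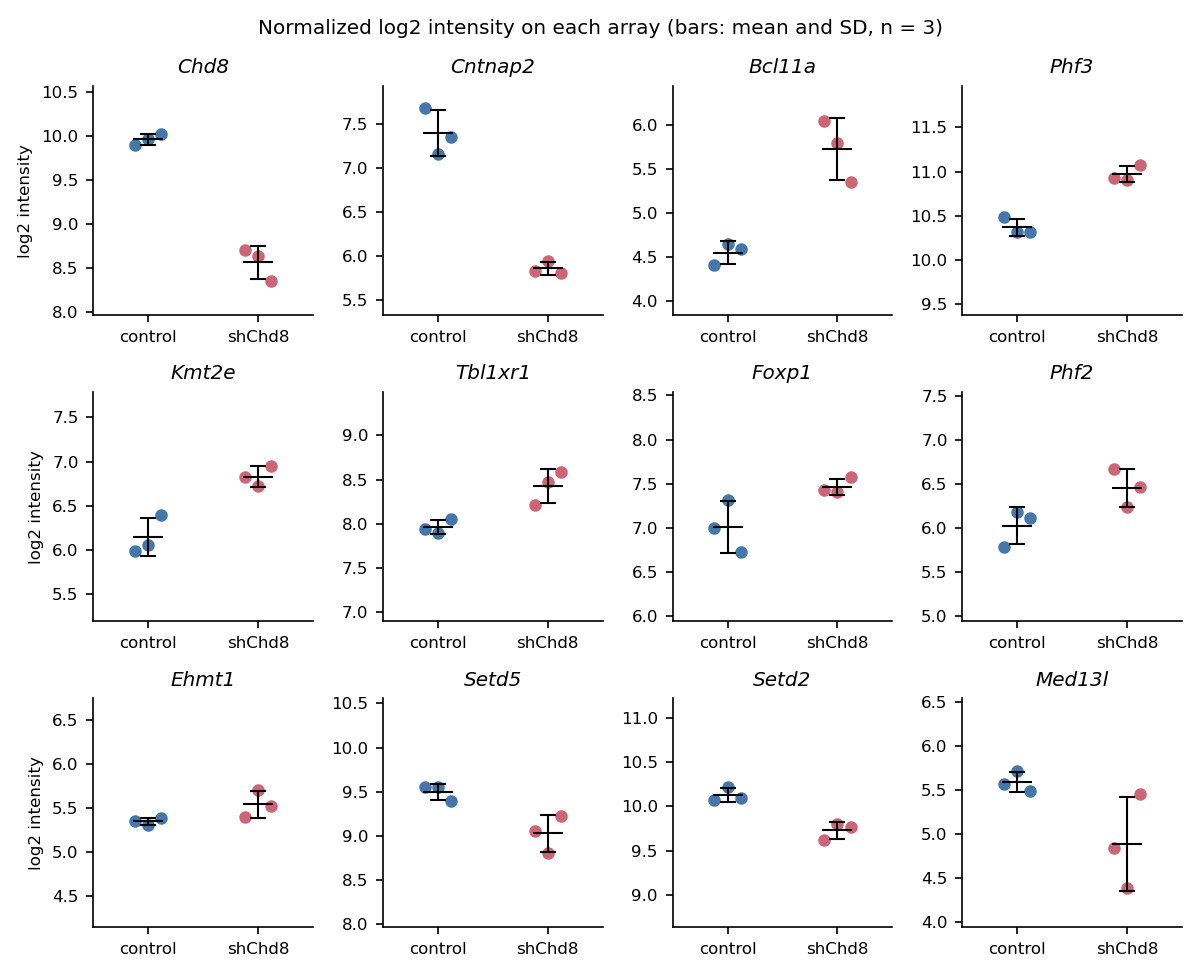
Normalized log2 intensity on each array (points) with the mean and SD of 3 arrays for Chd8 and for the 11 members whose control and shChd8 arrays did not overlap on the brightest tested probe; every panel spans 2.6 log2 units, the width of the vertical axis. Cntnap2 lies at 7.16 to 7.68 in control and 5.81 to 5.95 in shChd8. For Foxp1, Phf2, Ehmt1, Med13l, Setd5 and Tbl1xr1 the gap between the groups is smaller than the larger of the group SDs.

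The groups did not overlap for 11 of the 30 tested members on the brightest probe, 7 higher and 4 lower in shChd8. Over all genes tested this held for 32.8%, with 14.6% higher and 18.2% lower, so the members' share of 36.7% was near the background. By class the share was 50% of 20 tested chromatin and transcription members, Bcl11a among them, and 33.3% of 3 synaptic members. It was 0% of 7 members of ubiquitin ligases, kinases and growth control. These shares were not tested against each other. Of these 11, 9 were not called, and their values follow by role.

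Phf3, a PHD-finger protein that binds RNA polymerase II during transcription, lay just outside the threshold. Its brightest probe had log2 values of 10.48, 10.31 and 10.31 in control and 10.93, 10.91 and 11.08 in shChd8, a log2 change of 0.60 (SE 0.14, limma adjusted p = 0.0546). A second probe of Phf3, at 8.97, 8.80 and 8.77 in control and 9.12, 9.24 and 9.52 in shChd8, had 0.45 (adjusted p = 0.135). Both probes were higher on every shChd8 array, and Phf3 passed the threshold in 6 of 17 alternative settings, with log2 changes between 0.56 and 0.78 over all 17. These settings are not all distinct: the deposited values nearly repeat the setting without background correction. Choosing the probe with the lowest p leaves each probe's fit as it was.

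Kmt2e, a divergent member of the MLL methyltransferase family, had log2 values of 5.99, 6.06 and 6.39 in control and 6.82, 6.72 and 6.95 in shChd8. The change was 0.68 (SE 0.17, limma adjusted p = 0.0565), again just outside the threshold, and 3 of 17 settings called it. Its log2 change ranged from 0.34 to 0.99 over these settings. The remaining methyltransferase changes were smaller and went both ways.

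Setd5, a SET-domain protein, had log2 values of 9.55, 9.55 and 9.39 in control and 9.06, 8.80 and 9.22 in shChd8 (log2 change -0.47, SE 0.16, limma adjusted p = 0.122). Setd2, which trimethylates histone tails along transcribed genes, had 10.07, 10.22 and 10.09 in control and 9.62, 9.80 and 9.77 in shChd8 on its brightest probe (log2 change -0.40, SE 0.14, adjusted p = 0.133). Its other probes had -0.25 and -0.09, so the 3 had the same sign without a call. Both genes were called downward without background correction and in the deposited normalized values, with log2 changes of -0.41 for Setd5 and -0.36 for Setd2.

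Ehmt1, which with its partner Ehmt2 dimethylates histone tails at silent genes, had 5.35, 5.31 and 5.39 in control and 5.40, 5.70 and 5.52 in shChd8, a log2 change of 0.19 (SE 0.15, limma adjusted p = 0.456). Kmt2c, an enhancer methyltransferase of the MLL family, had 0.15 and Nsd1, another histone methyltransferase, 0.04 on their brightest probes. Kmt5b, a methyltransferase of histone H4, was read by 4 tested probes that went from -0.21 to 0.35. Of the 7 tested methyltransferases 0 were called by limma, with 1 above and 2 below 0 at an unadjusted p of less than 0.05, and the median was 0.15.

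None of the 3 demethylases was called by limma, with 1 above 0 at an unadjusted p of less than 0.05, and all 3 had a log2 change above 0 on the brightest probe. Phf2, a demethylase with a PHD finger, had 5.79, 6.18 and 6.11 in control and 6.67, 6.24 and 6.47 in shChd8 (log2 change 0.43, SE 0.18, limma adjusted p = 0.174). Kdm5b, which removes methyl groups from active promoters, had 0.30, 0.19 and -0.05 on its 3 probes. Kdm6b, which removes the Polycomb methyl mark, had 0.02 and -0.0039 on 2 probes, and its interval of -0.31 to 0.34 on the brighter one leaves out a 1.5-fold change in either direction.

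Besides Phf3, 5 other chromatin members were tested, and their brightest probes had log2 changes between -0.20 and 0.05. Adnp, a zinc-finger and homeodomain protein that acts with the remodeller Chd4, had log2 values of 11.46, 11.59 and 11.58 in control and 11.63, 11.49 and 11.56 in shChd8 on its brightest probe. Its 3 probes had log2 changes between -0.08 and 0.19. Arid1b, a subunit of the BAF remodelling complex, had 0.05 (95% interval -0.33 to 0.42) on a probe detected on all 6 arrays and -0.47 (adjusted p = 0.273) on one detected on 3. Pogz, which binds heterochromatin protein, had -0.20, and Ankrd11, a cofactor of histone deacetylases, -0.13 on its brightest probe and up to 0.26 on another. Auts2, part of a variant Polycomb complex, had -0.10 and 0.24 on 2 probes.

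For all 4 tested transcription factors and cofactors, Bcl11a among them, the arrays of 1 group lay apart from those of the other on the brightest tested probe, beside 32.8% of all genes tested. Bcl11a counts here only as a gene that had to differ to be tested. Tbl1xr1, an exchange factor of the NCoR corepressor, had 7.94, 7.89 and 8.05 in control and 8.21, 8.47 and 8.59 in shChd8 (log2 change 0.46, SE 0.16, limma adjusted p = 0.119). Its second tested probe had 0.60 with overlapping groups (adjusted p = 0.174). Foxp1, a forkhead repressor, had 7.00, 7.31 and 6.72 in control and 7.43, 7.40 and 7.57 in shChd8 (0.45, SE 0.18, adjusted p = 0.163). Med13l, a subunit of the Mediator kinase module, was detected on all 3 control arrays and on 1 shChd8 array, with 5.57, 5.72 and 5.49 against 4.84, 4.39 and 5.45 (-0.70, SE 0.25, adjusted p = 0.134). Median scaling called Tbl1xr1 and Foxp1 upward as well, but under it the median of all genes was 0.18 in place of -0.02.

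In the class of ubiquitin ligases, kinases and growth control, 0 of 7 tested genes were called by limma. The groups overlapped on the brightest probe of each, whereas they did not for 32.8% of all genes tested. At an unadjusted p of less than 0.05, 1 was higher and 1 lower. Trip12, a HECT-type ubiquitin ligase, had 11.75, 11.70 and 11.86 in control and 11.82, 11.76 and 11.70 in shChd8 on its brightest probe, and its 4 tested probes had log2 changes between -0.19 and 0.13. Cul3, the scaffold of a large family of ubiquitin ligases, had 0.13 and 0.38 on 2 probes (the latter at an adjusted p of 0.194). Naa15, the anchoring subunit of the main N-terminal acetyltransferase, had -0.15 and -0.32. Dyrk1a, a kinase encoded in the Down syndrome region, had -0.08 on its brighter probe and -0.56 on the other, where the adjusted p was 0.172.

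Tsc1 and Tsc2 form the complex that holds back the growth kinase mTOR. Tsc2 had log2 values of 10.65, 10.62 and 10.72 in control and 10.77, 10.60 and 10.84 in shChd8 on its brightest probe, a log2 change of 0.07 (95% interval -0.26 to 0.40), and Tsc1 had -0.11 (-0.55 to 0.33). Nf1, which switches off Ras, was detected on 3 arrays by its tested probe and had 0.47 with a wide interval of -0.14 to 1.09. For 5 of the 7 tested genes of this class the 95% interval on the brightest probe lay inside a 1.5-fold change either way. For Cul3, Naa15, Trip12 and Tsc1, however, the interval of a dimmer tested probe passed that limit. It reached 0.75, -0.78, -0.63 and 0.67 in that order.

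The 2 other tested synaptic members lay close to the detection limit. Shank3, a scaffold of the postsynaptic density, had 5.44, 6.25 and 6.15 in control and 5.68, 5.14 and 5.77 in shChd8, with overlapping groups (log2 change -0.41, SE 0.26, limma adjusted p = 0.352). Reln, the secreted guide of migrating cortical neurons, was detected on 2 control and 3 shChd8 arrays and had 0.20 (95% interval -0.47 to 0.87). The Shank3 interval of -1.01 to 0.18 holds a 1.5-fold fall, and that of Reln a 1.5-fold rise.

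Over all 30 tested members, the 95% interval on the brightest probe lay inside a 1.5-fold change for 13 and inside a 2-fold change for 24, or 43.3% and 80.0%. Over all 9711 genes tested it lay inside these limits for 3206 and 7668. Probes of a gene did not always go the same way: of 17 members with more than 1 tested probe, 6 had the same sign on each, against 2337 of 3449 among all such genes. In the 11 members whose probes had opposite signs, the changes lay between -0.47 and 0.35.

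**Figure D4:**
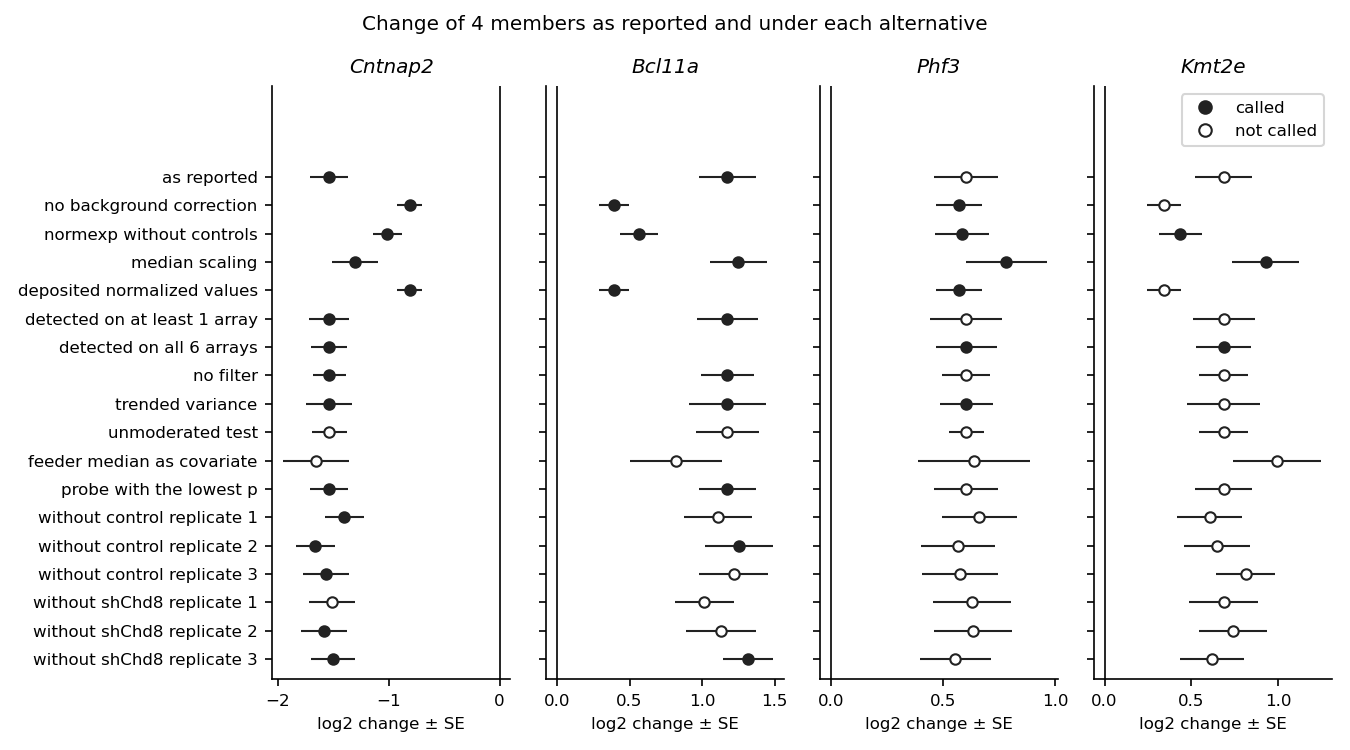
Log2 change with its standard error for Cntnap2, Bcl11a, Phf3 and Kmt2e as reported and under each alternative, with filled points called at an adjusted p under 0.05. Cntnap2 was called in 14 of 17 alternatives and Bcl11a in 10 of the 16 that kept its probe, Phf3 in 6 of 17 and Kmt2e in 3 of 17, and none changed sign. The alternatives overlap. Choosing the probe with the lowest p leaves each probe's fit unchanged, so that point repeats the reported one. The deposited values nearly repeat the setting without background correction.

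Related genes outside the list were read from the same fit. Of 23 tested relatives of the chromatin members 0 were called by limma (at an unadjusted p of less than 0.05, 4 lay above and 3 below 0), with a median log2 change of 0.04. Of 12 tested relatives of the other members 2 rose, beside 5.17% of all genes tested called either way and 2.12% called up. Dyrk1b, the paralogue of Dyrk1a, had 7.81, 7.70 and 7.86 in control and 8.62, 8.55 and 8.68 in shChd8, a rise of 0.83 (SE 0.14, limma adjusted p = 0.0282). Ank1, the ankyrin of red cells, stayed below detection in control, and its level in shChd8 was at least 1.06-fold higher (adjusted p = 0.0492). It too passed the filter only through the group where it was high, so its call gives no support beyond that detection.

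Further autism-associated genes gave 1 call in each of 2 lists. These were 5.56% and 7.69% of their tested genes, close to the 5.17% over all genes tested. Smarcc2, a BAF subunit like Arid1b, was 1 of 18 tested genes of chromatin and transcription. All 3 shChd8 arrays and 0 control arrays detected it, a level at least 1.56-fold higher (limma adjusted p = 0.0385). Like Bcl11a, it passed the filter only through the shChd8 arrays, so a difference was bound to appear. Csnk2a1, a catalytic subunit of casein kinase, was 1 of 13 tested genes of signalling and synapse. It fell by 0.81 on the log2 scale on 1 probe (SE 0.18, adjusted p = 0.0459), while its brightest probe had -0.11 with overlapping groups. The medians of these lists were 0.08 and 0.12.

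Among 8 tested partners of reelin and the postsynaptic scaffolds 0 were called by limma (at an unadjusted p of less than 0.05, 1 lay above and 1 below 0). Among 12 tested genes of the TSC and mTOR pathway 2 were called, 1 in each direction, beside 5.17% of all genes. Ddit4, an inhibitor that acts through Tsc2, had 9.25, 8.64 and 8.76 in control and 9.92, 9.97 and 9.90 in shChd8, a rise of 1.04 (SE 0.18, limma adjusted p = 0.0313). Mtor, the kinase itself, fell by 0.80 on a probe tied to a cDNA clone (SE 0.17, adjusted p = 0.0455) and had -0.02 on the brighter probe tied to the RefSeq transcript. Feeder marker levels were above those of control in these shChd8 arrays. After adding the feeder median to the model, 0 of the related genes and 0 of all genes tested were called by limma. That model cannot separate the feeder median from the group, so a part of feeder RNA in these calls was not tested. The falls of Mtor and Csnk2a1 were not called when any 1 of the 6 arrays was left out, with median scaling or with no filter. In place of 4 related genes called up, leaving out 1 array gave between 0 and 3, with 0 without control replicate 3 or any 1 shChd8 array.

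**Figure D5:**
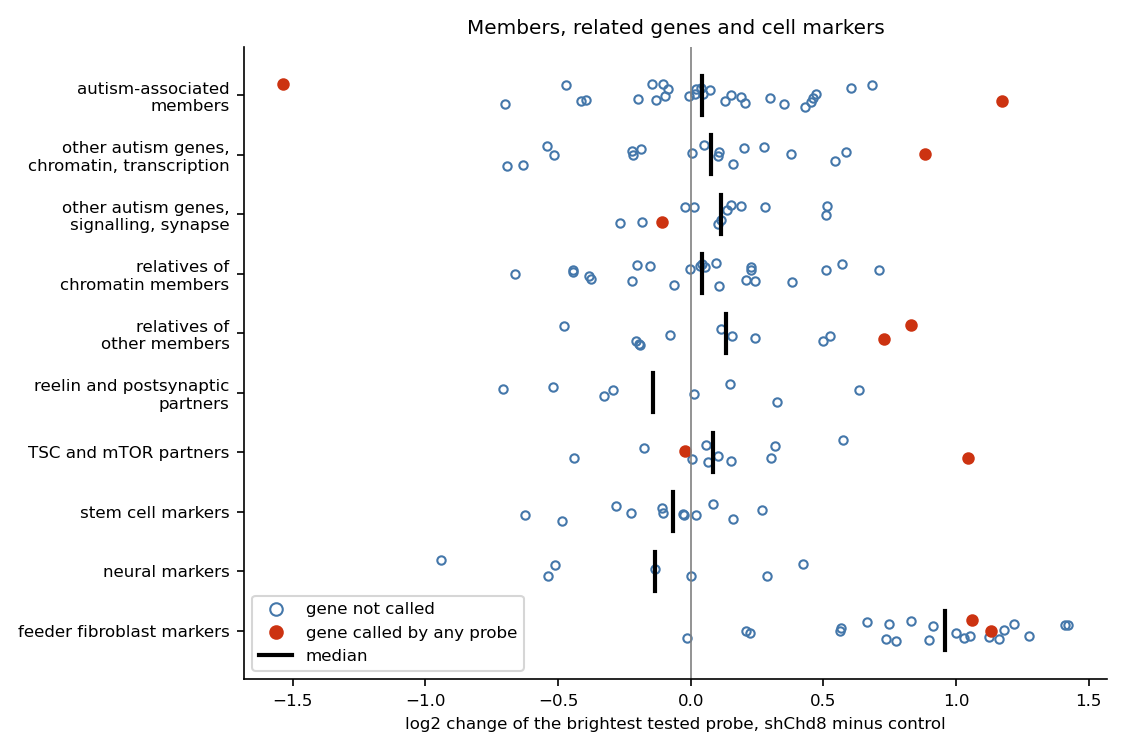
Log2 change of the brightest tested probe of each gene (points), shChd8 minus control, with the median of each list (black bars) and genes called by any probe in red. The medians of the members and related genes lie between -0.14 and 0.13, while the feeder fibroblast markers lie at 0.96; Csnk2a1 and Mtor are red near 0 because a dimmer probe was called.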

How the data were processed

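Transcripts were measured on Illumina bead arrays, 1 per sample. Per the file headers, the deposited table gives each probe's linear, non-normalized intensity and its detection p-value. The submitters' processing notes name GenomeStudio, without a version in the sources used here. A second deposited table holds normalized intensity. Its columns kept the rank order of the other table, and once sorted lay a median of 0.0038% from the average sorted column of that table, as quantile normalization without background subtraction gives. 0 further columns of per-sample values were left unused.

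From the non-normalized intensity, limma 3.58.1 in R 4.3.3 was used. The function neqc did background correction and quantile normalization (negative controls inferred from detection p-values, offset 16), which gave log2 values. Tested probes had a detection p-value under 0.01 on 3 or more of the 6 arrays. It was fitted with lmFit and eBayes, two-sided, without covariate, over the whole array, with Benjamini-Hochberg adjustment across every tested probe. A gene was called when any probe had an adjusted p under 0.05. A list's median rests on the brightest tested probe of each gene. The script was tested on simulated data. Replicate numbers only count samples in accession order, without pairing them. Intervals are limma's 95% intervals, not adjusted for the number of genes. The number of arrays limits the precision.

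Symbols of 34885 probes with 1 gene symbol were used, 34807 of them updated through RefSeq gene identifiers. All members were named, with array values for the called ones, those whose groups did not overlap and examples of the rest, and in each other list the called genes and at most 4 with the lowest p. The members and lists were chosen with earlier results of these data known. The alternatives covered background correction, normalization, the deposited normalized values, the filter, the variance model, a feeder covariate, the probe per gene and leaving out each array. The choice of probe per gene does not change the fit of any probe. The deposited values nearly repeat the setting without background correction.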

Additional observations from a re-analysis of the deposited data

How the results depend on the processing

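All 11 members whose groups did not overlap kept their sign in each alternative that gave a value for their probe. Groups that do not overlap favour this. Member counts moved with the processing, from 1 up and 1 down. Dropping background correction, or using the deposited normalized values, gave 2 up and 3 down, with normexp without controls 3 up, and with median scaling 5 up. With detection on all 6 arrays, which drops Bcl11a, and with a trended variance there were 2 up. Up and down counts were both 0 in the unmoderated test and with the feeder covariate. They ranged from 0 to 1 in each direction when 1 array was left out, with 0 down without shChd8 replicate 1 and 0 up without control replicates 1 or 3 or shChd8 replicates 1 or 2.

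For Chd8 the log2 change was -1.39 in the unmoderated test (adjusted p = 0.061), -1.56 with the feeder covariate (adjusted p = 0.274) and between -1.47 and -1.29 without 1 array. The fall was smaller, though still called, at -1.16 with median scaling and -1.28 with normexp without controls. It was -1.21 without background correction and in the deposited normalized values. The median of the chromatin and transcription members, 0.10, was 0.31 with median scaling, where all genes had 0.18, was 0.30 with the feeder covariate and lay between 0.031 and 0.24 without 1 array. For the related genes, 4 up and 2 down, median scaling gave 14 up and 0 down, detection on at least 1 array and no filter 2 up and 0 down, and detection on all 6 arrays 2 up and 4 down. There were 4 down with the deposited normalized values or no background correction, 5 down with normexp without controls and with a trended variance, and 0 both ways in the unmoderated test and with the feeder covariate. Without 1 array there were 0 to 3 up and 0 down. The feeder marker median was -0.064 with itself as the covariate. Over all genes, 502 calls became 1326 without background correction or with the deposited values, 1245 with normexp without controls, 1341 with median scaling, 1303 with a trended variance, 833 with detection on all 6 arrays, 224 with detection on at least 1, 259 without a filter, 17 in the unmoderated test and 0 with the feeder covariate. They ranged from 11 without shChd8 replicate 1 to 651 without control replicate 2. Where not stated, the cause was not tested. Signal near background limits what can be said of the synaptic members. No paired analysis was possible because the labels number the samples without pairing them.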

Other observations

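Of the relatives of chromatin members, none of which was called by limma, 4 had the lowest p. Asxl1, the Polycomb-associated relative of Asxl3, had log2 changes of -0.81, -0.62 and -0.44 on 3 probes (lowest limma adjusted p = 0.054). Adnp2, the relative of Adnp, had -0.66 and -0.54 on 2 probes (lowest adjusted p = 0.0721). Nsd3, a relative of Nsd1, had 0.51 (adjusted p = 0.072) and 0.05 on its probes, and Ankrd12, a relative of Ankrd11, had 0.71 (adjusted p = 0.0938) and 0.51.

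Among other genes without a call, Hdac4, a class II histone deacetylase, had a log2 change of -0.69 (limma adjusted p = 0.0542), and Homer2, which tethers postsynaptic scaffolds, had -0.71 (adjusted p = 0.0778). Tcf7l2, a transcription factor of the Wnt pathway, had 0.59 (adjusted p = 0.0748) and the dynein heavy chain gene Dync1h1 had 0.51 (adjusted p = 0.0753).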
